A study of Homo sapiens with 6 samples.

Results

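The WNT ligands are secreted, lipid-modified glycoproteins that carry signals between neighbouring cells. The 10 genes described here are WNT5A, WNT5B, WNT6, WNT11, WNT7A, WNT7B, WNT10A, WNT3, WNT4 and WNT9A. They are a list of gene names, taken from 58174 genes with expression values and drawn up with earlier results of these data known. The human genome holds 19 WNT genes, and the 9 others are given only as a comparison. Expression was measured as FPKM, a fragment count scaled to transcript length and to library depth, and the values of a gene's transcripts were added up. Of the 10 ligands, 6 reached 0.5 FPKM in at least 3 samples and were tested with 16321 genes in all. WNT5B, WNT10A, WNT4 and WNT7A did not reach this level and were not tested.

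SiHa is an established cell line from a human squamous cell carcinoma of the cervix. All 6 samples are SiHa cells transfected with Lipofectamine 3000 and harvested after 48 h. The OV-BRCA1 group (n = 3) received the GV230-BRCA1 plasmid, and the NC group (n = 3) received the same GV230 vector without the insert. Both groups thus carry a plasmid and the transfection reagent, the expression is transient in a cell population of a single line, and no untransfected cells are among the samples. The comparison asks which genes change when BRCA1, a DNA repair gene, is expressed from a plasmid.

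WNT ligands are acylated by PORCN in the endoplasmic reticulum and carried to the cell surface by WLS. At the receiving cell they bind Frizzled receptors. With the co-receptors LRP5 and LRP6 they stabilise beta-catenin, which then activates genes together with TCF and LEF factors. With ROR2, RYK and related receptors they act without beta-catenin on cell polarity, movement and calcium. WNT5A and WNT11 are best known for the second route, and WNT3, WNT7B and WNT9A are known mainly for the first.

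BRCA1 itself stood at 35.7, 40.8 and 34.9 FPKM in the OV-BRCA1 group, above the 20.1, 14.9 and 21.7 FPKM of the NC group in every sample. Its mean was 1.97 times higher, with a log2 fold change of 0.95 (SE 0.14, limma adjusted p = 0.00373). It thus passed the test but was not a DEG by the criterion given below. The depth behind the values was estimated at 13.6 to 16.1 M fragments per OV-BRCA1 sample and 15.6 to 19.1 M per NC sample. Of 10 epithelial markers, 7 passed the filter, and the sum of the 10 was 3330 to 3491 FPKM in the OV-BRCA1 group and 3718 to 3843 FPKM in the NC group, with KRT17 lower and KRT18, KRT8 and EPCAM higher in the OV-BRCA1 group. The study lists both KRT17 and KRT8 as downregulated, so for KRT8 the direction here differs from the study's. The squamous markers KRT5 and TP63 stayed under 0.5 FPKM in every sample. None of 6 fibroblast markers passed the filter (summed level 0.120 to 0.468 FPKM in the OV-BRCA1 group and 0.118 to 0.243 FPKM in the NC group). Of 4 endothelial markers only PECAM1 passed it, and VWF and KDR were listed at 0 throughout (sums 0.761 to 1.45 FPKM and 0.629 to 0.788 FPKM). The sum of 6 immune markers was 22.3 to 29.5 FPKM in the OV-BRCA1 group and 2.97 to 4.38 FPKM in the NC group, nearly all of it from the lysosomal gene CD68, while PTPRC was listed at 0 in every sample. Whether these marker differences play a part in the ligand differences was not tested.

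Of the 6 ligands tested, 4 were lower in the OV-BRCA1 group (WNT5A, WNT6, WNT11 and WNT9A), 1 was higher (WNT7B) and 1 did not pass the test (WNT3). The criterion was a limma adjusted p-value (Benjamini-Hochberg) below 0.05. Over all tested genes 18.9% were lower and 16.4% higher by this criterion, and median-of-ratios scaling turned that balance, with 2812 genes lower and 2924 higher in place of 3090 and 2674. WNT5A and WNT6 were also downregulated DEGs, for which the log2 fold change had to exceed 1 in size as well. Downregulated DEGs made up 1.1% of all tested genes, and upregulated DEGs, which included no ligand, made up 2.89%. The number of ligands among the downregulated DEGs was 1 without NC sample 2 and 3 without OV-BRCA1 sample 3. It was also 1 with median-of-ratios scaling (WNT5A log2 fold change -0.98) and with the most abundant transcript in place of the sum (WNT5A limma adjusted p = 0.180), and 3 with a pseudocount of 0.1. That pseudocount also raised the DEGs of both directions among all tested genes from 651 to 1280. In 5 of the 6 ligands the values of the groups were fully separate, against 50.8% of all tested genes. The median log2 fold change of the 6 ligands was -0.72, and that of all tested genes was -0.04. All fold changes here are OV-BRCA1 minus NC on the scale of log2(FPKM + 1), which understates the change of genes with low values. In these bulk samples, fewer cells that express a gene and less RNA per cell cannot be told apart.

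**Figure D1:**
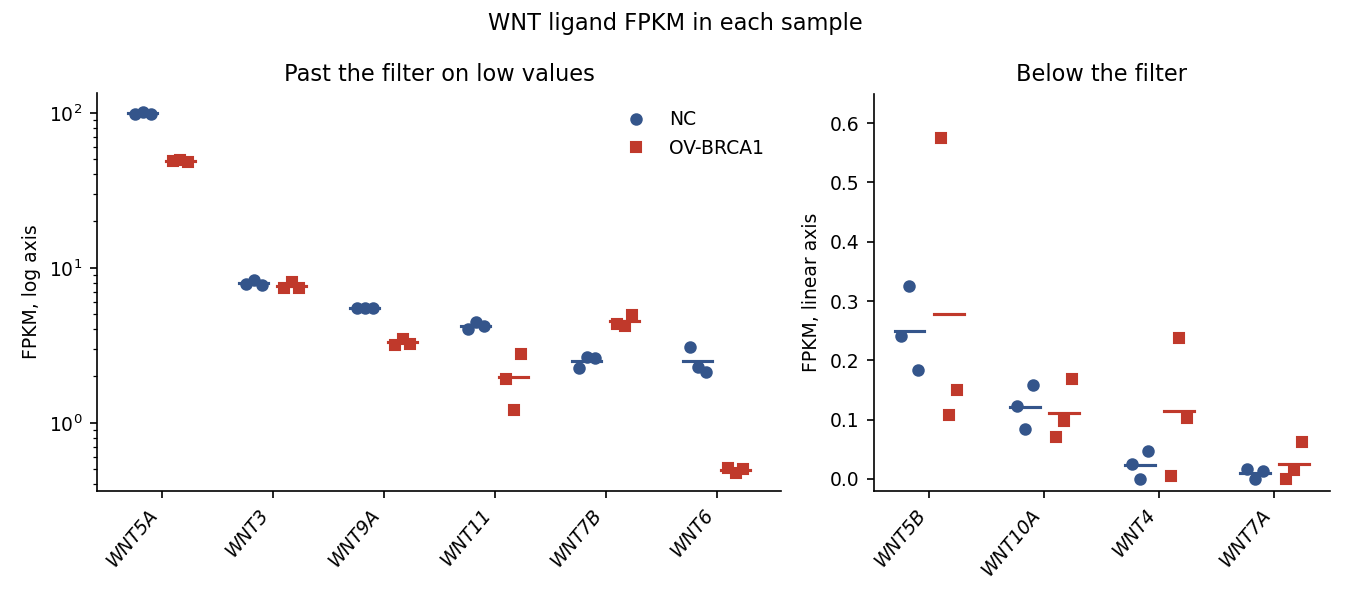
FPKM of each WNT ligand in each sample, with 3 NC samples (blue circles) and 3 OV-BRCA1 samples (red squares) per gene and a line at the group mean. The left panel has a log axis and shows the 6 tested genes, and the right panel has a linear axis and shows the 4 genes below the filter. WNT5A stood near 100 FPKM in NC and near 49 FPKM in OV-BRCA1, WNT6 showed the widest gap, and WNT3 overlapped.

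WNT5A (ENSG00000114251) lies on the minus strand at chr3:55465715-55490539 of GRCh38 and was the most abundant ligand in every sample. Its level was 48.8, 49.5 and 48.3 FPKM in the OV-BRCA1 group (samples 1, 2 and 3, the order used throughout) and 97.9, 101.8 and 98.8 FPKM in the NC group. The samples within each group lay close together, and the groups were far apart. The mean was 48.9 ± 0.583 FPKM (SD, n = 3) against 99.5 ± 2.02 FPKM (SD, n = 3), 2.04 times higher in NC. The log2 fold change was -1.01 (SE 0.04, limma adjusted p = 2.31e-05).

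WNT6 (ENSG00000115596, plus strand, chr2:218859821-218874233), a ligand known from embryonic epithelia, had the largest fold change among the ligands. It stood at 0.513, 0.477 and 0.504 FPKM in the OV-BRCA1 group and at 3.07, 2.30 and 2.12 FPKM in the NC group. The OV-BRCA1 samples were nearly equal, and each was under every NC sample. The mean was 5.01 times higher in NC, and the log2 fold change was -1.21 (SE 0.12, limma adjusted p = 7.55e-04), or -2.10 with a pseudocount of 0.1. The values rest on few molecules, an estimated 11.7 to 13.6 fragments per OV-BRCA1 sample and 68.9 to 81.4 per NC sample. The OV-BRCA1 values of WNT6 also lie at the limit of the filter, with samples 1 and 3 just above 0.5 FPKM and sample 2 just under it, and without any filter the gene passed as well (limma adjusted p = 0.00412).

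WNT11 (ENSG00000085741, minus strand, chr11:76186325-76210736), which guides convergent cell movements in the embryo, was measured at 1.93, 1.21 and 2.79 FPKM in the OV-BRCA1 group and at 4.04, 4.44 and 4.20 FPKM in the NC group. The OV-BRCA1 samples were spread out, with sample 2 lowest and sample 3 highest, but did not reach the NC samples. The log2 fold change was -0.85 (SE 0.19, limma adjusted p = 0.0176). The call was lost without NC sample 2 (adjusted p = 0.0540), without NC sample 3 (adjusted p = 0.0509) and without the filter on low values (adjusted p = 0.0510).

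WNT9A (ENSG00000143816, minus strand, chr1:227918656-227947898), a ligand known from joint formation, was at 3.19, 3.47 and 3.24 FPKM in the OV-BRCA1 group. In the NC group it was at 5.54, 5.47 and 5.49 FPKM. The NC samples were almost identical, and all lay above the OV-BRCA1 samples. The log2 fold change was -0.60 (SE 0.07, limma adjusted p = 0.00147), with a mean 1.67 times higher in NC. WNT9A has a single annotated transcript, so its gene value does not depend on how fragments were divided among transcripts.

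WNT7B (ENSG00000188064, minus strand, chr22:45920362-45977129), a ligand of lung and kidney development, moved the other way. It was at 4.34, 4.21 and 4.99 FPKM in the OV-BRCA1 group and at 2.24, 2.64 and 2.63 FPKM in the NC group. Every OV-BRCA1 sample was above every NC sample. The mean rose 1.80 times, with a log2 fold change of 0.65 (SE 0.10, limma adjusted p = 0.00335). WNT7B and its closest relative WNT7A share 77.8% of aligned coding bases but no stretch of 150 bases, and WNT7A was at or near 0.

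WNT3 (ENSG00000108379, minus strand, chr17:46762506-46833154), which is needed for the body axis in the early embryo, was the second ligand by level. It stood at 7.44, 8.15 and 7.42 FPKM in the OV-BRCA1 group and at 7.83, 8.31 and 7.80 FPKM in the NC group. The ranges overlapped, and the log2 fold change of -0.05 (SE 0.07) did not pass the test (limma adjusted p = 0.609). Over the alternatives it lay between -0.09 and -0.02, and none passed.

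**Figure D2:**
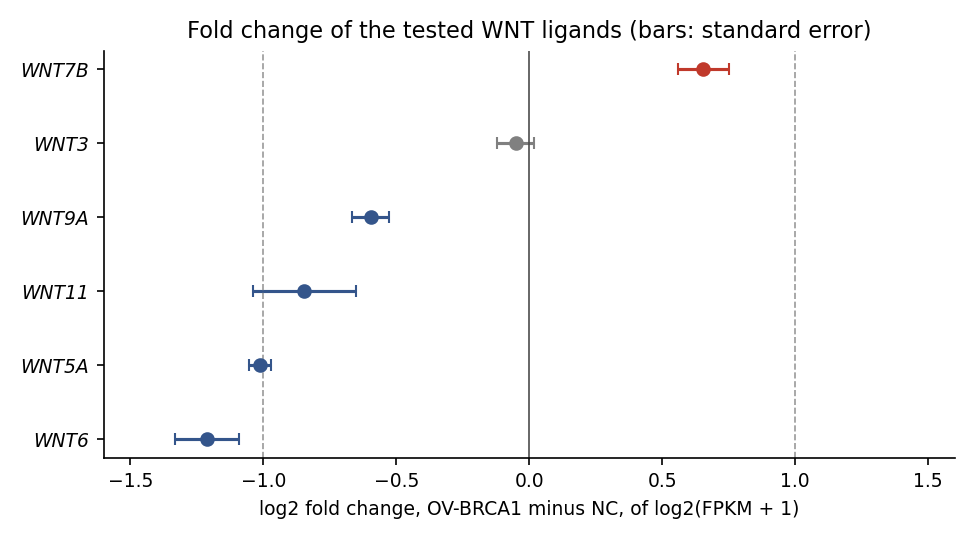
Log2 fold change (OV-BRCA1 minus NC, of log2(FPKM + 1)) of the 6 tested ligands with standard errors as bars. Blue marks genes lower in OV-BRCA1, red the gene that was higher and grey the gene that did not pass the test, and the dashed lines stand at a log2 fold change of 1 in either direction. WNT5A lies on the left dashed line and WNT6 beyond it.

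The 4 ligands below the filter were detected only weakly. WNT5B (chromosome 12), the closest relative of WNT5A, was at 0.576, 0.108 and 0.150 FPKM in the OV-BRCA1 group and at 0.241, 0.325 and 0.184 FPKM in the NC group. OV-BRCA1 sample 1 was the highest of the 6 and sample 2 the lowest. WNT10A (chromosome 2), a ligand of tooth and skin appendage development, was at 0.0704, 0.0972 and 0.168 FPKM against 0.122, 0.0841 and 0.158 FPKM. WNT4 (chromosome 1), which acts in kidney and female reproductive tract development, was at 0.00517, 0.237 and 0.102 FPKM against 0.0250, 0 and 0.0463 FPKM. WNT7A (chromosome 3), a ligand of uterine development, was at 0, 0.0154 and 0.0614 FPKM against 0.0158, 0 and 0.0129 FPKM. The groups overlapped in each of these genes, and all values but that of WNT5B in OV-BRCA1 sample 1 stand for fewer than 10 estimated fragments, and whether they differed was not tested.

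The order of the levels, which compares genes per length, began with WNT5A and WNT3 in both groups. In the NC group WNT9A, WNT11, WNT7B, WNT6, WNT5B, WNT10A, WNT4 and WNT7A followed, and the ranges of WNT7B and WNT6 overlapped, as did those of WNT4 and WNT7A. In the OV-BRCA1 group WNT7B followed next, ahead of WNT9A and WNT11, and the following neighbours WNT6, WNT5B, WNT4 and WNT10A overlapped in turn. Summed over the 10 ligands the level was 66.8, 67.5 and 67.7 FPKM in the OV-BRCA1 group and 121, 125 and 121 FPKM in the NC group. The WNT5A part of that sum was 81.2% ± 0.234 (SD, n = 3) for the NC samples and 72.6% ± 1.07 (SD, n = 3) for the OV-BRCA1 samples. Without WNT5A the sum of the other ligands was 18.1, 18.0 and 19.4 FPKM against 23.1, 23.6 and 22.6 FPKM. Most of the summed difference thus came from WNT5A. The sum of the remaining ligands, in which WNT7B moved against WNT11, WNT9A and WNT6, also differed without overlap.

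Of the 9 other WNT genes, 2 passed the filter, and neither passed the test. WNT2B was at 0.704 FPKM in OV-BRCA1 and 0.649 FPKM in NC on average (limma adjusted p = 0.759), and WNT10B at 0.793 and 0.605 FPKM (limma adjusted p = 0.620). WNT1, WNT2 and WNT8B exceeded 0.1 FPKM in at least 1 sample, and WNT8A and WNT9B were listed at 0 in all samples. WNT6 and WNT10A are neighbours on the same strand, 6129 bases apart, and WNT3 and WNT9B lie 46 bases apart, head to head on opposite strands. In each of these pairs only 1 gene was expressed above the filter.

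Promoter sequences are shown for the genes that were lower in the OV-BRCA1 group and have an entry in the table used, which are WNT5A with 2 annotated starts, WNT6 and WNT9A. Of the 10 ligands 8 matched an entry by symbol, and WNT11 and WNT7B did not. They come from RefSeq (GRCh38.p14), run 5′ to 3′ on the gene's strand from 250 bases before to 50 bases after the start, and let a reader compare what lies at the starts of genes that moved together. The WNT5A distal window is chr3:55487257-55487556 (minus strand), the WNT5A proximal window chr3:55481349-55481648 (minus strand), the WNT6 window chr2:218859555-218859854 (plus strand) and the WNT9A window chr1:227947883-227948182 (minus strand). Capitals mark a GC box (GGGCGG, on either strand) or a TATA box (TATAA, on either strand).
WNT5A distal: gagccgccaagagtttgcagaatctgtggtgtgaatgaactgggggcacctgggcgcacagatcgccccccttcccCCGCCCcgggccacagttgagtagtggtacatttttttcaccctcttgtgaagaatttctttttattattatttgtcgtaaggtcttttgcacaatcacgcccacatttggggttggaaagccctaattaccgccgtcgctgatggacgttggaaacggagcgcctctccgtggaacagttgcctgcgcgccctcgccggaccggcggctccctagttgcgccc
WNT5A proximal: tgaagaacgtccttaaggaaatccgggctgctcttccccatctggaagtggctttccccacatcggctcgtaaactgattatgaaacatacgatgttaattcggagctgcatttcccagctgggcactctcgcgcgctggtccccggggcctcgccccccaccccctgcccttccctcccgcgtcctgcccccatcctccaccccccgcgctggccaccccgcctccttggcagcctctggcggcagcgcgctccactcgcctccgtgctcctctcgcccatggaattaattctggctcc
WNT6: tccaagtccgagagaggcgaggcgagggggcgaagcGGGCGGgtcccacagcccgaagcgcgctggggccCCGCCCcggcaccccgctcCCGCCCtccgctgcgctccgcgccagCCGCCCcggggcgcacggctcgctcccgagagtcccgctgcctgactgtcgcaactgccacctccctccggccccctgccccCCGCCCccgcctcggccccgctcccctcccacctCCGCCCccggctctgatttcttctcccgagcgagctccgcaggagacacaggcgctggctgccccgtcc
WNT9A: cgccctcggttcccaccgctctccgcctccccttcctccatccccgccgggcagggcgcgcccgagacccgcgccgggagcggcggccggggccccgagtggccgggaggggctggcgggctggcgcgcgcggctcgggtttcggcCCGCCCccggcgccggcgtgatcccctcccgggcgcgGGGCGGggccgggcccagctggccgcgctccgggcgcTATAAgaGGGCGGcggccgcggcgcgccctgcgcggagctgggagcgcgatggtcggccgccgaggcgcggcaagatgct
The WNT5A distal window held 1 GC box, at 174 bases before the RefSeq start, and the proximal window held no match to any motif searched. The distal window does not show what lies upstream of WNT5A-201, a transcript row described below. It lies wholly within the first exon of WNT5A-201, whose start is 336 bases upstream of the RefSeq start. WNT6 held 6 GC boxes. WNT9A held 3 GC boxes and a TATA box whose first base lies 30 bases before the start. No match overlapped another in these 4 windows. Of all 35116 RefSeq promoter windows of 300 bases, 45.0% held a GC box and 20.4% a TATA box.

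No window of any of the 8 ligands with an entry held the TCF/LEF core CTTTGA (12.9% of all windows), the interferon-gamma-activated site TTCNNNGAA bound by STAT factors (7.66%), the interferon-stimulated element core GAAANNGAA (8.11%) or the AP-1 site TGANTCA (7.71%), all searched on both strands. The absence says only that these letters are not in these windows. The GC content was 56.3% in the WNT5A distal window, 63.7% in the proximal window, 78.0% in that of WNT6 and 83.0% in that of WNT9A, and the median of all windows was 58.7%. WNT6 and WNT9A thus lie above the median and the distal window of WNT5A under it. Of the ligands below the filter, WNT4 had 85.7% GC and 9 GC boxes, WNT7A 80.3% and 4, and WNT10A 76.7% and 2, while the windows at both WNT5B starts lay under the median, at 51.7% with 0 GC boxes and 52.0% with 2. WNT3, which did not pass the test, held 2 GC boxes in a window with 65.7% GC.

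WNT5A was listed with 7 transcript rows. WNT5A-201 and WNT5A-202 carry the same annotated coding sequence (a shared CCDS entry), and their messages are almost alike, since 96.0% of the 150-base windows of WNT5A-201 also occur in WNT5A-202. They differ at the 5′ end, where WNT5A-202 starts 2303 bases upstream of WNT5A-201. WNT5A-205 starts 6249 bases and WNT5A-203 starts 6446 bases downstream of WNT5A-201, close to the proximal promoter. The RefSeq distal start lies 336 bases downstream of the WNT5A-201 start, and the RefSeq proximal start lies 5 bases from that of WNT5A-205. WNT5A-204, WNT5A-206 and WNT5A-207 are short rows annotated without a coding sequence.

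**Figure D3:**
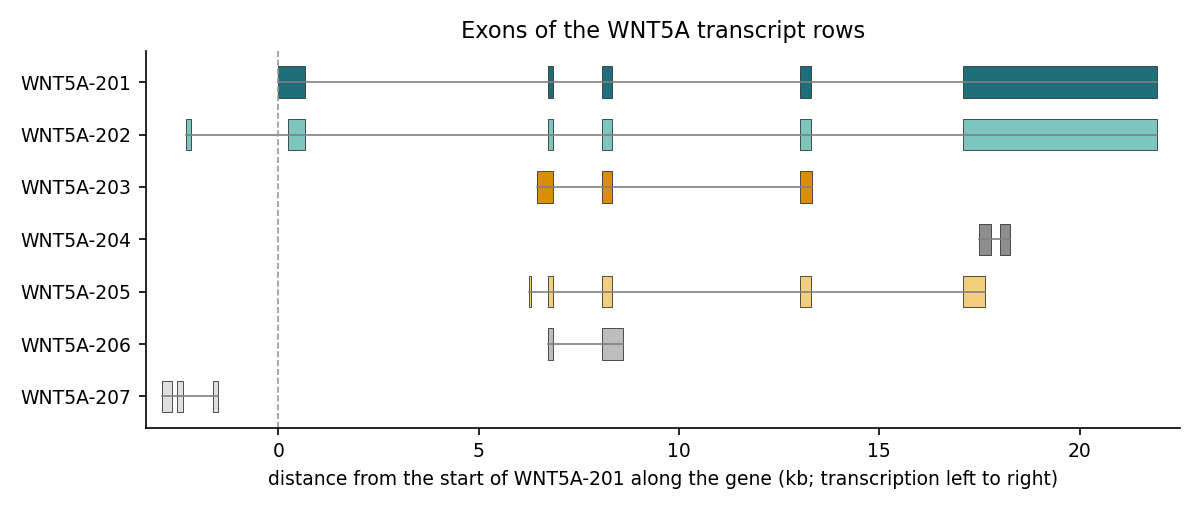
Exons (boxes) of the 7 WNT5A transcript rows by distance from the start of WNT5A-201 in kb, drawn in the direction of transcription. WNT5A-201 and WNT5A-202 share their exons apart from the 5′ end, and WNT5A-203 and WNT5A-205 begin more than 6 kb further along.

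WNT5A-201 held most of the gene's FPKM in 5 of the 6 samples. It was at 39.1, 39.0 and 4.37 FPKM in the OV-BRCA1 group, with sample 3 far below the others, and at 76.5, 76.4 and 73.9 FPKM in the NC group. The log2 fold change of -1.90 (SE 0.81) did not pass the test over 50925 transcript rows (limma adjusted p = 0.251). Without OV-BRCA1 sample 3 it was -0.94 and passed (limma adjusted p = 0.0104). WNT5A-202 mirrored this, with 0.0294, 0.00254 and 35.9 FPKM in the OV-BRCA1 group and 0.0427, 0.0233 and 0.00182 FPKM in the NC group. It was thus near 0 in 5 samples and held 74.4% of WNT5A in OV-BRCA1 sample 3.

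Taken as 1 quantity, WNT5A-201 and WNT5A-202 came to 39.1, 39.0 and 40.3 FPKM in the OV-BRCA1 group and 76.5, 76.4 and 73.9 FPKM in the NC group, and OV-BRCA1 sample 3 no longer stood apart. In the fit with rows of equal coding sequence summed, chosen after seeing the data, the log2 fold change was -0.92 (SE 0.05, limma adjusted p = 9.87e-04 over 48666 rows). The gene sum of WNT5A in OV-BRCA1 sample 3 was within 1.2 FPKM of the other OV-BRCA1 samples.

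Among the other rows WNT5A-203, a protein-coding row with no CCDS entry, was the 1 of 5 tested WNT5A rows that passed, and 2.63% of all tested transcript rows were lower. It was at 5.09, 5.84 and 5.86 FPKM in the OV-BRCA1 group and at 12.8, 12.8 and 14.5 FPKM in the NC group, with no overlap, and fell by 1.12 on the log2 scale (SE 0.11, limma adjusted p = 0.00659). WNT5A-204 had 1.40, 1.30 and 0.501 FPKM against 2.71, 3.19 and 2.92 FPKM (log2 fold change -0.96, limma adjusted p = 0.0715). WNT5A-206 had 1.15, 2.12 and 0.784 FPKM against 4.42, 4.05 and 2.96 FPKM (log2 fold change -1.06, limma adjusted p = 0.0816). Both stood lower without overlap but did not pass. WNT5A-205 had 1.55, 1.23 and 0.817 FPKM against 0.913, 5.24 and 4.10 FPKM, with NC sample 1 among the OV-BRCA1 values (log2 fold change -0.85, limma adjusted p = 0.364). Its log2 fold change was -1.37 without NC sample 1 (limma adjusted p = 0.0659) and -0.52 without NC sample 2 (limma adjusted p = 0.603). WNT5A-207 stayed under the filter, at 0 to 0.455 FPKM in the OV-BRCA1 group and 0.142 to 0.586 FPKM in the NC group.

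**Figure D4:**
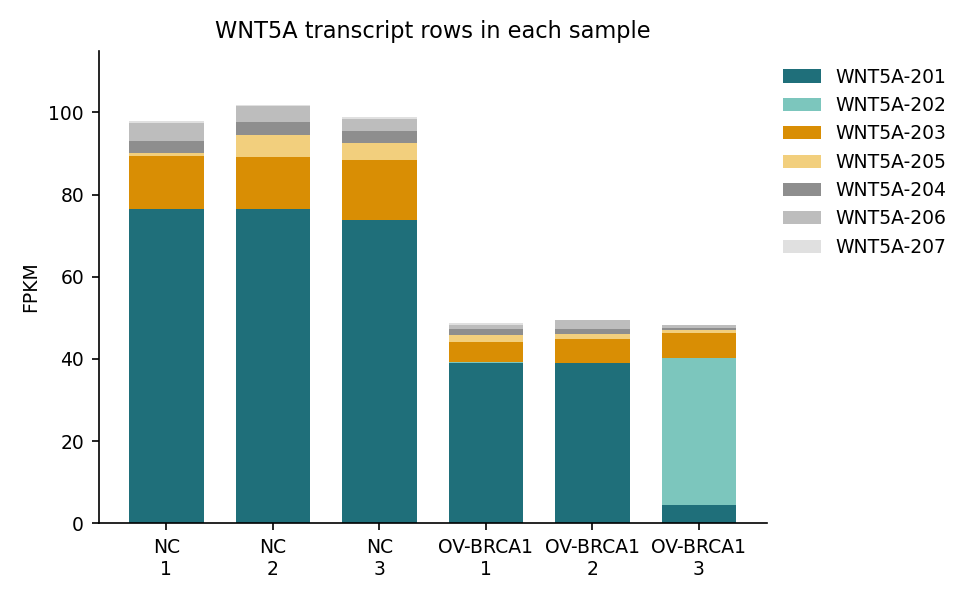
FPKM of the 7 WNT5A transcript rows stacked per sample, so that the bar height is the gene level. Bars of the 3 NC samples reach 97.9 to 101.8 FPKM and those of the OV-BRCA1 samples 48.3 to 49.5 FPKM, and in OV-BRCA1 sample 3 the light part, WNT5A-202, stands where WNT5A-201 stands in the others.

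The share of WNT5A held by the distal starts, WNT5A-201 and WNT5A-202 together, was 80.2%, 78.8% and 83.4% in the OV-BRCA1 group and 78.2%, 75.0% and 74.8% in the NC group. The shares did not overlap and differed by 4.83 percentage points on average (exact two-sided permutation p = 0.1, the smallest that 3 against 3 samples allow). The share of the proximal starts, WNT5A-203 and WNT5A-205, was 13.9% ± 0.345 (SD, n = 3) against 16.8% ± 2.53 (SD, n = 3), and the samples overlapped (exact two-sided permutation p = 0.2). The share of WNT5A-203 alone was 10.4%, 11.8% and 12.1% against 13.0%, 12.6% and 14.6%, without overlap (exact two-sided permutation p = 0.1), and that of WNT5A-205 overlapped. All these shares depend on how fragments were divided among the rows. Of the 150-base windows, 94.7% of those of WNT5A-205 and 65.6% of those of WNT5A-203 also occur in WNT5A-201. The FPKM of both classes were lower in every OV-BRCA1 sample, at 39.0 to 40.3 against 73.9 to 76.5 FPKM for the distal and 6.64 to 7.07 against 13.7 to 18.6 FPKM for the proximal starts.

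Over the 10 ligands there were 43 transcript rows, of which 11 passed the filter and 21 were listed at 0 in all samples. In WNT6, WNT3 and WNT9A a single row carried all of the gene. In WNT7B this held for WNT7B-201 in the OV-BRCA1 group, while NC sample 3 had 0.430 FPKM in WNT7B-203 beside 2.20 FPKM in WNT7B-201. WNT11 had 2 tested rows. Its full-length coding row WNT11-201 was at 1.27, 0.753 and 1.69 FPKM in the OV-BRCA1 group and 2.88, 3.52 and 3.37 FPKM in the NC group (log2 fold change -0.95, limma adjusted p = 0.0578). WNT11-203, a short row upstream without a coding sequence, was at 0.665, 0.455 and 1.03 FPKM against 0.682, 0.908 and 0.753 FPKM (log2 fold change -0.07, limma adjusted p = 0.851). The share of WNT11 held by WNT11-203 was 18.4% ± 1.83 (SD, n = 3) for the NC samples and 36.3% ± 1.65 (SD, n = 3) for the OV-BRCA1 samples, without overlap (exact two-sided permutation p = 0.1, the smallest possible, computed after the values were seen). Neither row passed the test.

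A gene that overlaps a ligand on the opposite strand could share its fragments where strand was not used, and the use of strand is not given in the sources used here. WNT5A-AS1, an antisense RNA of 610 bases within the WNT5A locus, covers 0 bases of WNT5A exons and did not pass the test (3.63 FPKM in OV-BRCA1, 4.09 FPKM in NC, log2 fold change -0.15, limma adjusted p = 0.554). FBXL14, which lies within WNT5B on the opposite strand, was higher (3.56 against 2.13 FPKM, log2 fold change 0.54, limma adjusted p = 0.00534). It ends upstream of the starts of WNT5B-202 and WNT5B-208, the rows that held the whole WNT5B level in every sample but NC sample 2, where WNT5B-205 had 0.0890 FPKM. AP000785.1 within WNT11, on the opposite strand, and MIR5008 within WNT9A, on the same strand, stayed under the filter, with 0 in all NC samples. Between ligands, coding identity was highest for WNT5A and WNT5B, at 80.4%, and no pair of ligands shared a stretch of 150 bases.

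The 3 genes whose profile over the 6 samples was nearest to that of WNT5A were PBXIP1, SREBF1, a regulator of lipid synthesis genes, and COL5A1, a chain of type V collagen. Their root-mean-square distances from the centred log2 profile of WNT5A were 0.0230, 0.0353 and 0.0390. PBXIP1 was at 8.46, 8.98 and 8.25 FPKM in the OV-BRCA1 group and 17.9, 18.7 and 18.1 FPKM in the NC group. As in WNT5A, the step between the groups was far wider than the spread within them. The distances describe 6 samples that fall into 2 groups.

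The genes around the ligands were grouped into 7 lists by role, with 119 genes, of which 87 passed the filter. Of these, 19 were higher (21.8%) and 15 lower (17.2%), close to the 16.4% and 18.9% over all genes, and the median log2 fold change was 0.02. Without NC sample 1 the number called fell from 34 to 22, and with the most abundant transcript in place of the sum to 21. Calls over all tested genes fell too, from 2674 higher and 3090 lower to 2174 and 2289, and to 1685 and 1606. The 19 higher genes include ROR2 and NKD2, and the 15 lower genes include FZD10. ROR2, NKD2 and FZD10 each passed the filter only through the group in which it was high.

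In the list of WNT acylation, export and release, 2 of 13 tested genes were higher (15.4%, against 16.4% of all genes) and 1 was lower (7.69%, against 18.9%). PORCN, the acyltransferase every ligand needs, was at 16.1 FPKM in OV-BRCA1 and 16.4 FPKM in NC (limma adjusted p = 0.762). WLS, the carrier to the surface, was at 38.7 and 31.4 FPKM (limma adjusted p = 0.210). TMED5, a cargo adaptor of the early secretory route, rose from 18.8 to 38.1 FPKM (log2 fold change 0.99, limma adjusted p = 2.45e-04), and GPC1, a cell surface proteoglycan, fell from 25.5 to 14.6 FPKM (log2 fold change -0.76, limma adjusted p = 7.56e-04). TMED2, of the same family as TMED5, was an upregulated DEG (log2 fold change 1.17, limma adjusted p = 0.0291), with 96.0, 42.6 and 97.4 FPKM against 31.0, 32.7 and 32.6 FPKM. OV-BRCA1 sample 2 stood apart, and without any one of the 5 other samples the adjusted p-value of TMED2 was between 0.0714 and 0.0837.

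The secreted inhibitors showed 1 higher and 1 lower gene of 4 tested (25.0% each, against 16.4% and 18.9% of all genes). DKK1, which blocks LRP5 and LRP6, was among the abundant genes, at 294, 292 and 290 FPKM in the OV-BRCA1 group and 224, 220 and 224 FPKM in the NC group (log2 fold change 0.39, SE 0.03, limma adjusted p = 5.10e-04). NOTUM, which removes the lipid from WNT ligands, was at 4.37, 3.99 and 4.14 FPKM against 8.99, 8.99 and 10.8 FPKM and was a downregulated DEG (log2 fold change -1.03, SE 0.09, limma adjusted p = 5.12e-04). The groups did not overlap in either gene. The antagonists SFRP1, SFRP5 and WIF1 stayed below the filter.

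Among the receptors and co-receptors, 6 of 15 tested genes were higher (40.0%, against 16.4% of all genes) and 1 was lower (6.67%, against 18.9%). FZD9 was at 4.18, 3.94 and 4.07 FPKM in the OV-BRCA1 group and 2.27, 2.19 and 1.85 FPKM in the NC group (log2 fold change 0.71, limma adjusted p = 0.00171). LRP5 rose from 17.0 to 21.5 FPKM (log2 fold change 0.32, limma adjusted p = 0.00467), and LRP6 was at 4.89 FPKM in OV-BRCA1 and 5.38 FPKM in NC (limma adjusted p = 0.326). FZD10 was at 0.294, 0.150 and 0.307 FPKM against 1.03, 0.844 and 0.852 FPKM. ROR2, a receptor of WNT5A, was at 0.541, 0.647 and 0.513 FPKM against 0.237, 0.204 and 0.340 FPKM. FZD10, the lower gene, and ROR2, counted as higher, passed the filter only through the group in which each was high, so they had to differ and no test is given for them. FZD4, FZD6 and FZD8 were the remaining 3 genes called higher.

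Of the R-spondins and the proteins that turn receptors over, 2 of 4 tested genes were higher, against 16.4% of all genes. RSPO3, a secreted enhancer of WNT signalling, was at 3.23, 3.07 and 2.88 FPKM in the OV-BRCA1 group and 0.909, 1.10 and 1.26 FPKM in the NC group (log2 fold change 0.96, SE 0.10, limma adjusted p = 8.28e-04). Its samples were apart. ZNRF3, a ligase that removes Frizzled receptors, passed narrowly (log2 fold change 0.23, limma adjusted p = 0.0476) and did not pass when any single sample was left out (limma adjusted p 0.0876 to 0.118).

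In the beta-catenin cascade 2 of 22 tested genes were higher (9.09%, against 16.4% of all genes) and 6 lower (27.3%, against 18.9%). The kinase CSNK1A1 rose from 18.5 to 30.6 FPKM (log2 fold change 0.70, limma adjusted p = 2.19e-04), with a log2 fold change of 0.35 (limma adjusted p = 0.0256) for its most abundant transcript in place of the sum. The scaffold DVL2 fell from 30.7 to 23.1 FPKM (log2 fold change -0.39, limma adjusted p = 0.00901, but a log2 fold change of -0.64 with adjusted p = 0.0671 for the most abundant transcript in place of the sum) and PYGO2, a nuclear co-activator, from 14.2 to 10.7 FPKM (log2 fold change -0.37, limma adjusted p = 0.00940). CTNNB1, the gene of beta-catenin, was at 79.0 and 79.8 FPKM (limma adjusted p = 0.808).

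Of 13 tested genes known as beta-catenin targets, 6 were higher (46.2%, against 16.4% of all genes) and 2 lower (15.4%, against 18.9%), and 1 of the 6, NKD2, passed the filter only through the OV-BRCA1 group in which it was high. The upregulated DEGs were CCND1, the gene of cyclin D1, which rose from 0.662 to 4.39 FPKM (log2 fold change 1.70, or 2.56 with a pseudocount of 0.1, limma adjusted p = 5.91e-05 for the first), and FOSL1, a subunit of AP-1, which rose from 17.1 to 78.5 FPKM (log2 fold change 2.14, limma adjusted p = 3.37e-04). DKK1 and NOTUM belong to this list too and moved in opposite directions. AXIN2, a widely used readout of the beta-catenin route, stayed below the filter, at 0.065 FPKM in OV-BRCA1 and 0.049 FPKM in NC on average. The list thus held both directions. Many genes of this kind also answer to other pathways, and what moved them here was not tested.

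In the planar polarity and calcium branch, through which WNT5A and WNT11 mainly act, 2 of 21 tested genes were higher (9.52%, against 16.4% of all genes) and 5 lower (23.8%, against 18.9%). NFATC3, a calcium-dependent transcription factor, rose from 6.70 to 11.1 FPKM (log2 fold change 0.65, limma adjusted p = 0.00154). CELSR1, a cadherin of planar polarity, fell from 10.1 to 6.66 FPKM (log2 fold change -0.55, limma adjusted p = 0.00723), and the phospholipase PLCB3 fell from 20.3 to 15.0 FPKM (log2 fold change -0.42, limma adjusted p = 0.0112). With the most abundant transcript in place of the sum none of these 3 passed, although the directions were the same, with a log2 fold change of 0.49 for NFATC3 (limma adjusted p = 0.0841), -0.56 for CELSR1 (limma adjusted p = 0.254) and -1.65 for PLCB3 (limma adjusted p = 0.213).

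**Figure D5:**
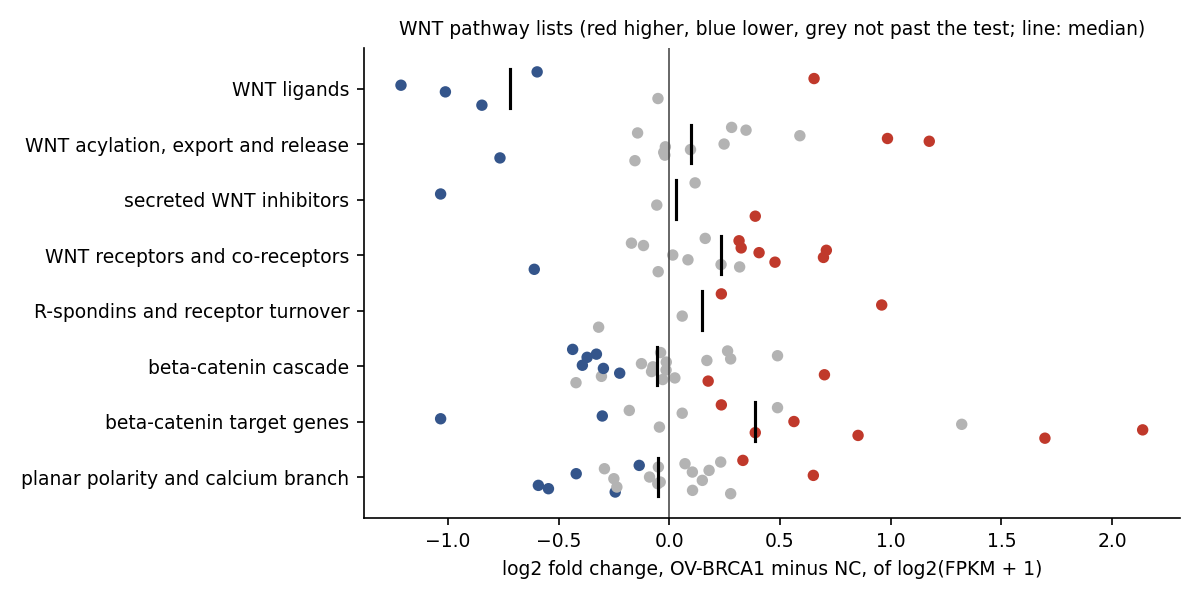
Log2 fold change (OV-BRCA1 minus NC, of log2(FPKM + 1)) of every tested gene in the WNT ligand list and the 7 pathway lists, 1 point per gene. Red is higher, blue lower and grey not past the test, and the black line is the list median, which is -0.72 for the ligands and between -0.06 and 0.39 for the other lists.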

How the data were processed

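mRNA libraries of 6 transfected SiHa samples were sequenced, and samples were assigned to groups from the transfection given per the labels. The authors deposited FPKM values, for 199167 transcripts of 58174 genes. The submitters' processing notes name FastQC, HISAT2 and hg38, and the quantification tool, annotation and use of strand are not given in the sources used here. Names and positions came from GENCODE release 29, and promoters from RefSeq. Transcript FPKM were summed per gene and tested with limma 3.58.1 (trend, log2(FPKM + 1), Benjamini-Hochberg over all tested genes) in R 4.3.3, after a filter of at least 0.5 FPKM in at least 3 samples. Shares were compared with exact permutation tests (scipy 1.17.1). The test was tested on simulated data first. The negative binomial test the study used needs counts. Low values gave fragment numbers within 0.1 of an integer in only 32.5% to 34.7% of cases, which does not recover reads, and depth was estimated from 14217 genes with 1 transcript. The study's methods call the 3 samples per group biological replicates. The limma p-values set the group difference against the spread between these samples, moderated over all tested genes. Correlations of log2 profiles across genes were 0.983 to 0.985 within groups and 0.949 to 0.953 between groups.

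The ligands and the lists were chosen with earlier results of these data known. The text names all ligands, other WNT genes above 0.1 FPKM, the tested WNT5A rows, up to 3 genes per pathway list with the smallest adjusted p-values and its DEGs, genes overlapping a ligand, BRCA1 and the 3 profiles nearest to WNT5A. PORCN, WLS, LRP6, ROR2, FZD4, FZD6, FZD8, CTNNB1, AXIN2, NKD2, SFRP1, SFRP5, WIF1, WNT5A-202, WNT5A-207, the WNT11 rows and the cell type markers were named for their role or after their values were seen. Alternatives changed the pseudocount, filter, scaling, transcript summary, trend, block and samples.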

Additional observations from a re-analysis of the deposited data

How the results depend on the processing

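The 5 ligands called changed were 4 or 5 in number under all 14 alternatives planned, 5 with the replicate block, and 4 to 5 when 1 sample was left out. With the criterion of adjusted p and fold change, added after seeing the data, the number was 2, and it was 1 with median-of-ratios scaling and without NC sample 2, where the WNT5A log2 fold change was -0.98 and -0.995, 1 with the most abundant transcript, where WNT5A lost its adjusted p-value, and 3 with a pseudocount of 0.1 and without OV-BRCA1 sample 3. WNT5A fell by 0.98 to 1.90 on the log2 scale over the alternatives, with the most abundant transcript, WNT5A-201, as the only one that lost the call (adjusted p = 0.180). Of the 87 tested pathway genes 34 were called, against 24 with the replicate block, 21 with the most abundant transcript, 4 with the added criterion of adjusted p and fold change, and 22 to 26 when 1 sample was left out. Among the named pathway genes the most abundant transcript ended the calls of CELSR1, DVL2, NFATC3, PLCB3, TMED2 and ZNRF3. The count of tested WNT5A rows called was 1, against 0 with the replicate block, 2 with rows of a shared coding sequence summed, and 1 to 2 when 1 sample was left out. The difference in the WNT5A-201 share was -20.0 percentage points (exact permutation p = 1.0). It turned to 4.83 with WNT5A-201 and WNT5A-202 added up (exact permutation p = 0.1) and ranged from -32.1 to 3.52 when 1 sample was left out, turning positive only without OV-BRCA1 sample 3. The WNT11-203 log2 fold change was -0.07 and ranged from -0.19 to 0.046 when 1 sample was left out, positive only without OV-BRCA1 sample 2. The cause of these changes was not tested. Over all genes 2674 were higher and 3090 lower, against 2924 and 2812 with median-of-ratios scaling and 2366 and 3475 with scaling to nuclear protein-coding genes. A pseudocount of 0.1 gave 1280 DEGs among all genes in place of 651. Same-numbered deviations correlated at -0.0244, 0.0250 and 0.0136. The labels do not say whether samples with the same replicate number were prepared together, and these correlations cannot decide it. The replicate block also ended the calls of WNT5A-203 (adjusted p = 0.0859) and ZNRF3 (adjusted p = 0.116). At the estimated depth, genes under 0.5 FPKM rest on few fragments, and intervals for them were not formed because counts are not among the values used here.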
